A study of Rattus norvegicus with 19 samples.

Results

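The levels of all RNAs measured in rat deep motor cortex 49 days after a spinal cord lesion were compared with those 14 days after it. The comparison used the 6 arrays that the labels place at these times, 3 at day 14 and 3 at day 49, of 19 arrays in the series. All 31042 probe sets other than array controls were compared, and no control array entered the comparison. The rats were adult female Fischer 344 animals in which a wire knife cut the dorsal funiculus at cervical segment 3. RNA came from deep tissue of the motor cortex, in its forelimb and hindlimb areas, where the layer V neurons with corticospinal axons lie, and 6 ug of total RNA per array was labelled with biotin on an Affymetrix whole-genome array. Both groups carry the same lesion, no allele or drug is named for either, and they differ in the labels only by time. The labels number 3 samples per group and do not say whether a sample pooled animals, so the p-values measure the spread between these samples. Such tissue holds neurons of several layers, glia and vessels together, so fewer cells of a type and less RNA per cell cannot be told apart.

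Corticospinal neurons send their axons through the dorsal funiculus of the rat spinal cord, so this cut severs the axon far from the cell body. Axotomized neurons are known to induce transcription factors such as Atf3 and neuropeptides such as galanin, vasoactive intestinal peptide and neuropeptide Y. Glia near injured neurons can become reactive, with more of the intermediate filament Gfap and more extracellular matrix.

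One array of each group stood apart from the rest. The median correlation with the other lesion arrays was 0.932 for day 14 replicate 2 and 0.969 for day 49 replicate 2, against 0.994 to 0.998 for the other 13 lesion arrays. The 3' minus 5' signal of Gapdh, a measure of RNA and labelling quality, was 3.18 on day 14 replicate 2 against 0.00112 to 0.196 on those 13, and -0.006 on day 49 replicate 2. The myelin gene Mbp was 8.84 on day 14 replicate 2 and 12.48 to 12.75 on the other 5 arrays. Differences are therefore given over all 6 arrays and again over the 4 arrays that remain without these 2. As a check of the tissue, the layer V markers Pcp4 (12.7 to 13.2 over the 6 arrays) and Crym (7.65 to 8.01) were above the median probe set of 5.60. The meningeal genes Lum (9.86 to 10.6) and Dcn (11.3 to 11.8) were also above that median. So were the striatal gene Adora2a (5.95 to 6.63) and the choroid plexus gene Ttr (6.02 to 6.95), while the striatal gene Drd2 (5.18 to 6.31) spanned it. A level above the median thus does not separate this tissue from its neighbours. The layer V regulators Bcl11b (4.43 to 5.93) and Fezf2 (4.27 to 4.91) lay near or below that median, and no level is compared between genes because probe sets differ in response.

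No probe set passed the test between day 49 and day 14 over all 6 arrays, and 4 did without the 2 arrays. All values are log2 signals, and a difference is day 49 minus day 14 from limma, called at an adjusted p under 0.05 (Benjamini-Hochberg, over 31042 probe sets). Over all 6 arrays 0 were called (0%), while 3101 (9.99%) had an unadjusted p under 0.05, of which 566 (1.82%) were higher and 2535 (8.17%) lower at day 49. Without the 2 arrays 4 were called (0.0129%), all of them higher, and 1973 (6.36%) had a p under 0.05, of which 824 (2.65%) were higher and 1149 (3.70%) lower. Both fits also took the spread from the arrays of the earlier days. With only the day 14 and day 49 arrays fitted, 145 of 31042 had a p under 0.05 over all 6 arrays, and 1042 without the 2. The number of small p-values thus depends on the earlier arrays, and the counts by list below use the fits that include them. The 3 arrays of one group lay entirely above or below those of the other for 544 probe sets higher at day 49 (1.75%) and 1262 lower (4.07%). Without the 2 arrays, with 2 arrays left in each group, this held for 4350 higher (14.0%) and 5345 lower (17.2%). A p under 0.05 in the same direction with and without the 2 arrays was met by 137 higher (0.441%) and 286 lower (0.921%). The 2 sets of differences had almost nothing in common across probe sets (r = 0.005), although they share 4 arrays. Their SD was 0.302 over all 6 arrays and 0.142 without the 2, and the share of probe sets with a difference beyond 0.5 in either direction went from 9.28% to 0.825%. Beyond this bulk, a small group of genes lay far below 0 with and without the 2 arrays, and these genes are described first.

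**Figure D1:**
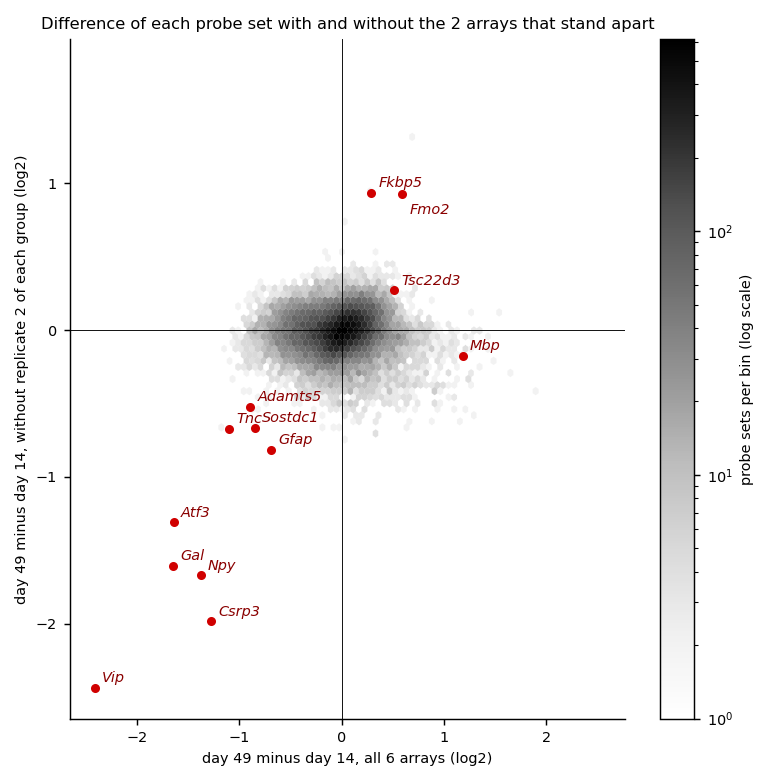
Difference between day 49 and day 14 in log2 units for each probe set, over all 6 arrays (horizontal) and without replicate 2 of each group (vertical); shading gives the number of probe sets per bin on a log scale, and red points are genes described in the text. Most probe sets spread along the horizontal axis (SD 0.302 against 0.142), while Vip, Gal, Npy, Atf3 and Csrp3 lie below -1 on both axes.

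The neuropeptide genes Vip, Gal and Npy were lower at day 49 on every array, although none passed the test. With array weights all 3 did (limma adjusted p = 0.027, 0.00921 and 0.0337). The weights were 2.38, 0.0372 and 1.22 on day 14 replicates 1, 2 and 3, and 0.373, 0.066 and 4.65 on those of day 49. The weighted day 49 level thus rests mostly on replicate 3. Vip, which encodes vasoactive intestinal peptide, had signals of 7.14, 6.56 and 6.41 on day 14 replicates 1, 2 and 3, and of 3.80, 4.20 and 4.88 on the day 49 replicates. The groups did not overlap and the 2 arrays that stand apart lay inside the range of their own groups. The difference was -2.41 (SE 0.61, 5.32-fold lower, limma adjusted p = 0.479) over all 6 arrays and -2.44 (SE 0.75, adjusted p = 0.708) without the 2. Gal, which encodes galanin, had signals of 8.46, 8.71 and 8.11 at day 14 and of 6.58, 6.99 and 6.77 at day 49. Its groups did not overlap either, and both were narrow. The difference was -1.65 (SE 0.31, 3.13-fold lower, limma adjusted p = 0.479) and -1.61 (SE 0.36, adjusted p = 0.607) without the 2 arrays. Npy, which encodes neuropeptide Y, had signals of 8.53, 7.81 and 7.76 at day 14 and of 6.14, 7.01 and 6.81 at day 49. Again no day 49 array reached a day 14 array, with a difference of -1.38 (SE 0.48) and -1.67 (SE 0.57) without the 2.

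The promoters of Vip and Gal are shown because both carry the core of the cyclic AMP response element, the sequence bound by CREB and ATF proteins. The windows span 250 bases before to 50 after the RefSeq start in build GRCr8, printed 5′ to 3′ along the gene, with the core TGACG in capitals. They lie at chr1:44470230-44470529 on the plus strand for Vip and at chr1:210084523-210084822 on the minus strand for Gal.
Vip: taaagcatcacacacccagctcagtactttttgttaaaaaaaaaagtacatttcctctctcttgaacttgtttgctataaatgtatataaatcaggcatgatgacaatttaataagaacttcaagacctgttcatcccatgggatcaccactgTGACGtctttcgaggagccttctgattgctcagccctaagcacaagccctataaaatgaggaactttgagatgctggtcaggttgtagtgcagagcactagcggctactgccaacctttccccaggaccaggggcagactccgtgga
Gal: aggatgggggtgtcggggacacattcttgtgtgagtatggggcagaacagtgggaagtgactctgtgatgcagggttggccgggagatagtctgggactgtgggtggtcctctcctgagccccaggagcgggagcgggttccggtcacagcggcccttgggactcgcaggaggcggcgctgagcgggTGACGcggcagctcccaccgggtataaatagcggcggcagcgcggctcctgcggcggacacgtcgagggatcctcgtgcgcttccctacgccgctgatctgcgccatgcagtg
The core starts 97 bases before the start in Vip and 63 before it in Gal. Searched on both strands, TGACG is present in 21.2% of the 33469 promoter windows of the same length in the table. The full element TGACGTCA is present in 1.83% of windows and in neither of these. The windows of Npy, Adcyap1, Flrt3, Gfap and Ctnnal1, whose levels also were lower, do not hold TGACG. Among genes described below as higher without the 2 arrays, TGACG is also present in the windows of Bcl6, Klf9 and Klf15 and in 1 of 3 windows of Tsc22d3. It is absent from those of Fkbp5, Mt2A and Pdk4. The core is thus not particular to the lower genes.

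Of 23 neuropeptide genes measured, 7 were higher and 16 lower over all 6 arrays, with a median of -0.11 against -0.03 over all 14217 genes, and 0 were called. With an unadjusted p under 0.05 there were 6, all lower, over all arrays and 5, all lower, without the 2 arrays. Over all genes the share lower at that p was 10.8% and 3.43%. The 5 that met it both ways were Vip, Gal, Npy, Adcyap1 (which encodes the peptide PACAP) and Nxph1 (neurexophilin 1). Adcyap1 and Nxph1 were named after their values were seen. Adcyap1 had signals of 9.04, 9.16 and 8.95 at day 14 and 8.88, 8.69 and 8.45 at day 49, a difference of -0.37 and of -0.33 without the 2 arrays. Nxph1 was -0.59 and -0.23, and its other 2 probe sets overlapped. In all, 10 members of the list were higher and 13 lower without the 2 arrays, with a median of -0.01. Sst, which encodes somatostatin, was at 9.88, 10.35 and 9.98 at day 14 and 10.02, 9.94 and 9.92 at day 49. Vip, Npy and Sst are also made by cortical interneurons. Of 24 interneuron genes 11 were higher and 13 lower, with a median of -0.03 over all arrays, and 12 were higher and 12 lower without the 2.

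Atf3, a transcription factor induced by axotomy, was lower on every day 49 array, with and without the 2 arrays, but did not pass the test. Its signals were 7.43, 7.90 and 7.30 at day 14 and 5.84, 5.59 and 6.28 at day 49, with no overlap. The difference was -1.64 (SE 0.46, 3.12-fold lower, limma adjusted p = 0.479) over all 6 arrays and -1.31 (SE 0.53, adjusted p = 0.776) without the 2. Csrp3, the muscle LIM protein that is also raised in axotomized sensory neurons, had signals of 6.91, 5.16 and 6.45 at day 14 and 4.70, 5.30 and 4.70 at day 49. Here the 2 arrays decided the overlap, since day 14 replicate 2 lay below day 49 replicate 2. The difference was -1.28 (limma adjusted p = 0.479) with them and -1.98 (adjusted p = 0.568) without. The growth cone protein gene Gap43 was at 11.60, 11.84 and 11.54 at day 14 and at 11.49, 11.52 and 11.38 at day 49, a difference of -0.20 and of -0.13 without the 2 arrays, and its other probe set overlapped at -0.02. Sprr1a, a small proline-rich protein induced in injured neurons, had a difference of -0.31 and of -0.38 without the 2, with overlapping groups. The transcription factors Jun (-0.27 and -0.10) and Sox11 (-0.04 and -0.13) also overlapped, and the other 2 probe sets of Jun were above 0 over all arrays (0.64 and 0.79). Fos, another transcription factor, overlapped at 0.43 and 0.39 without the 2. Its other probe set had the opposite sign, at -1.08 and -0.32, and was lower on every day 49 array.

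Of 35 regeneration-associated genes measured, 15 were higher and 20 lower over all 6 arrays, and 7 were higher and 28 lower without the 2 arrays. The median was -0.04 and -0.13, against -0.03 and -0.01 over all genes, and 0 members were called either way. Counted over all probe sets of each gene, the first of these medians was 0.04, with the opposite sign. At an unadjusted p under 0.05, 7 members (20%) were lower over all arrays and 10 (28.6%) without the 2, and none was higher. Among all genes 10.8% and 3.43% were lower at that p, and 168 of 14217 were so both ways. This list, like the others, was written with earlier results of these data known. Its share against all genes is thus a description and not an independent result. The 7 list members that met it both ways were Atf3, Vip, Gal, Npy, Adcyap1, Csrp3 and Flrt3. The peptides above are thus part of this count. Flrt3, a leucine-rich transmembrane adhesion protein named after its values were seen, had signals of 7.21, 7.63 and 7.04 at day 14 and 6.65, 6.37 and 6.71 at day 49, a difference of -0.72 and of -0.45 without the 2 arrays. The mean level of the list on each array was 7.55, 7.31 and 7.40 at day 14 and 7.12, 7.22 and 7.09 at day 49. The nearest arrays of the 2 groups were the replicates numbered 2.

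**Figure D2:**
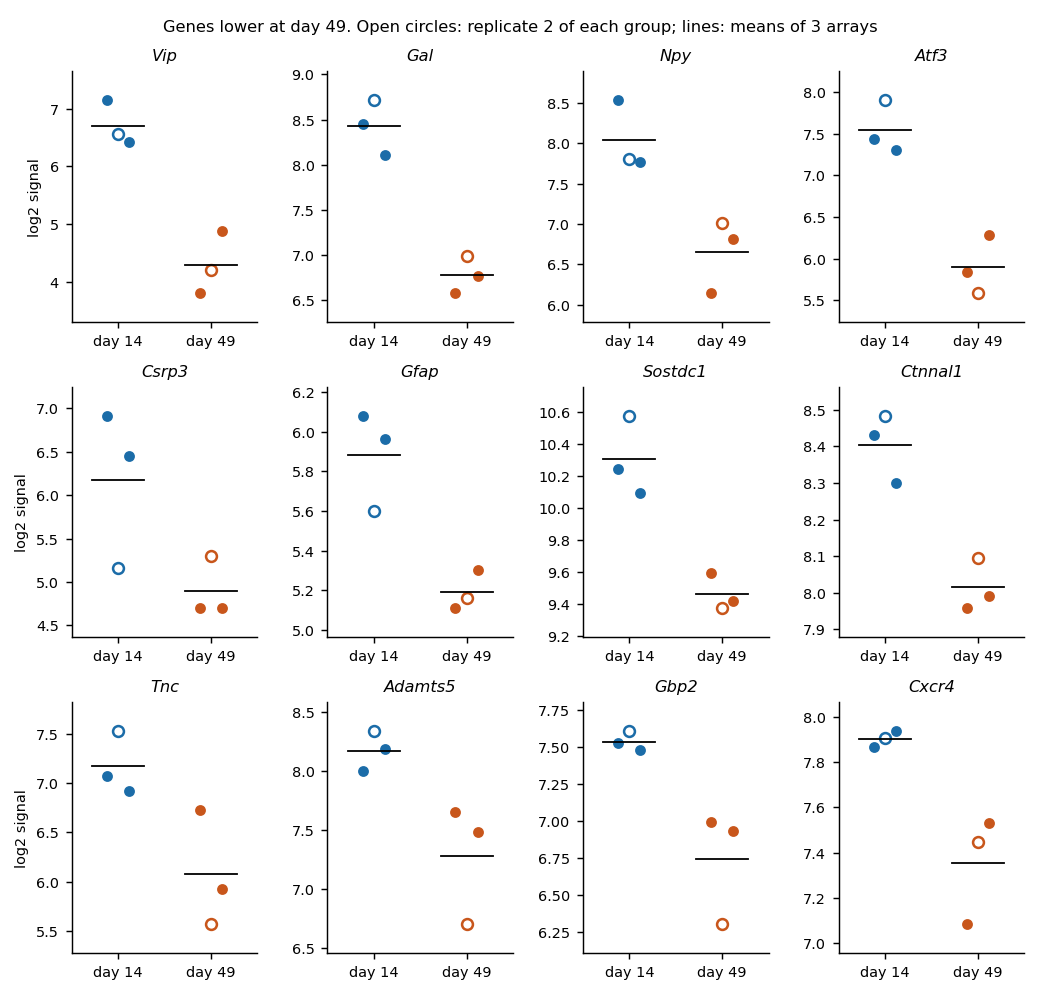
Log2 signal of 12 genes with a lower mean at day 49, with 1 point per array (blue day 14, orange day 49), open circles for replicate 2 of each group and lines for means of 3 arrays; the vertical axes do not start at 0. The groups do not overlap in any panel except Csrp3, where the open circles cross.

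Gfap, the intermediate filament of astrocytes, and several matrix genes were also lower at day 49, and none passed the test over all 6 arrays or without the 2. Gfap had signals of 6.08, 5.60 and 5.96 at day 14 and 5.11, 5.16 and 5.30 at day 49. The groups did not overlap, and the difference was -0.69 (SE 0.16, 1.62-fold lower, limma adjusted p = 0.479) over all arrays and -0.82 (SE 0.17, adjusted p = 0.568) without the 2. Of 24 reactive astrocyte genes 8 were higher and 16 lower, with a median of -0.12, and without the 2 arrays 4 were higher and 20 lower, with a median of -0.18. None was called, and 9 and 7 respectively had a p under 0.05, all lower, against 10.8% and 3.43% of all genes. The 4 that did so both ways were Gfap, Vim (vimentin, -0.16 and -0.14), Timp1 (an inhibitor of metalloproteinases, -0.31 both ways) and Fbln5 (fibulin 5, -0.39 and -0.35), of which the last 3 were named after their values were seen. The sphingosine 1-phosphate receptor gene S1pr3 took opposite signs, 0.08 over all arrays and -0.32 without the 2, and its signal on day 14 replicate 2 was 8.92 against 10.09 and 9.94 on the other day 14 arrays.

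Astrocyte genes that do not mark reactivity did not share a direction. Of 23 of them, 9 were higher and 14 lower over all arrays, with a median of -0.04, and 12 were higher and 11 lower without the 2. Gja1, the gap junction protein of astrocytes, had a difference of -0.46 with no overlap and of -0.21 without the 2 arrays. Its other 2 probe sets overlapped, at -0.05 and 0.04 over all arrays. Agt, which encodes angiotensinogen, was higher instead, at 4.82, 4.86 and 4.71 at day 14 and 5.01, 5.56 and 5.12 at day 49, a difference of 0.44 and of 0.30 without the 2. Both were named after their values were seen, as was Fabp7, a fatty acid binding protein of radial glia and astrocytes, with a difference of -0.66 and -0.49 without the 2 arrays.

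Among matrix genes, the adhesion-modulating glycoprotein gene Tnc (tenascin C) and the aggrecan-cleaving protease gene Adamts5 had the lowest differences of those described. Tnc, named after its values were seen, had signals of 7.07, 7.53 and 6.92 at day 14 and 6.73, 5.57 and 5.92 at day 49. The groups did not overlap, but day 14 replicate 2 was the highest and day 49 replicate 2 the lowest array. The difference was -1.10 with these 2 arrays and -0.67 without them. Adamts5 had signals of 8.0, 8.34 and 8.19 at day 14 and 7.66, 6.71 and 7.48 at day 49, with the same 2 arrays at the ends. Its difference was -0.89 (SE 0.20) and -0.52 (SE 0.13, limma adjusted p = 0.607) without them, and its other probe set gave -1.20 and -0.67. Of 34 genes of the perineuronal net and matrix 10 were higher and 24 lower, with a median of -0.12, and without the 2 arrays 9 were higher and 25 lower, with a median of -0.14. None was called. Those with a p under 0.05 were 1 higher and 10 lower over all arrays, and 0 and 9 without the 2, with 8 lower both ways, against 10.8% and 3.43% of all genes lower. These 8 were Tnc, Adamts5, Timp1, Timp2, the laminin chain genes Lama2, Lamb1 and Lamc1, and the basement membrane collagen gene Col4a1. Lamb1 was -0.42 and -0.35, Lamc1 -0.50 and -0.30, Lama2 -0.61 and -0.27, and Col4a1 -0.50 and -0.24. Over all arrays second probe sets overlapped between the groups for Col4a1 (-0.39 and -0.15), and for Timp2 (0.88 and -0.40) and Lamc1 (0.13 and -0.51), which took the opposite sign there. All of these but Adamts5 were named after their values were seen. Timp1 stands on both this list and the reactive astrocyte list.

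The lowest p over all 6 arrays belonged to Sostdc1, a secreted antagonist of BMP and Wnt signals. Its signals were 10.24, 10.58 and 10.10 at day 14 and 9.59, 9.37 and 9.42 at day 49, with no overlap. The difference was -0.85 (SE 0.12, 1.80-fold lower, limma adjusted p = 0.412) over all arrays and -0.66 (SE 0.10, adjusted p = 0.181) without the 2. All 3 day 49 arrays lay below the means of days 1, 3 and 7, which were 9.82, 10.05 and 9.85. Sostdc1 is on the choroid plexus list used to check the dissection. Of the 17 genes of that list 11 were higher and 6 lower, with a median of 0.07, and their mean level was 5.50 to 5.76 on the day 14 arrays and 5.66 to 5.94 on the day 49 arrays. The defining choroid plexus genes Ttr (6.02 to 6.95 over the 6 arrays) and Kl (3.37 to 3.68) overlapped between the groups. Ctnnal1, an alpha-catenin-like protein, had signals of 8.43, 8.48 and 8.30 at day 14 and 7.96, 8.10 and 7.99 at day 49. The difference of -0.39 was the same without the 2 arrays (limma adjusted p = 0.479 and 0.548).

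Other genes with the smallest p in the lower direction over all arrays were Pdpn (podoplanin, a surface mucin of glia and lymphatic vessels, -0.58), Zfp455 (a zinc finger protein, -0.51) and Hacl1 (a peroxisomal lyase of fatty acid oxidation, -0.39). Each was lower on all 3 day 49 arrays, and without the 2 arrays the differences were -0.36, -0.33 and -0.27. In the same comparison without the 2 arrays the smallest p included Pard6b, a cell polarity protein (-0.36), and RT1-CE10, a class I histocompatibility gene of the rat (-0.40), beside Sostdc1, Ctnnal1, Gfap and Csrp3.

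Most class II and interferon genes were below their day 14 level, while some macrophage genes were above it without the 2 arrays, and none was called. Gbp2, an interferon-induced GTPase, had signals of 7.52, 7.61 and 7.48 at day 14 and 6.99, 6.31 and 6.93 at day 49. Its difference was -0.79 (SE 0.17, limma adjusted p = 0.479) and -0.54 (SE 0.14, adjusted p = 0.607) without the 2 arrays. Cxcl9, an interferon-induced chemokine, was -0.40 and -0.35, also with no overlap. Of 40 class II and interferon genes 12 were higher and 28 lower, with a median of -0.14, and 10 were higher and 30 lower without the 2, with a median of -0.08. Over all 14217 genes 7841 were lower, and 7595 without the 2. At a p under 0.05, 3 members (7.5%) were lower over all arrays and 2 (5%) without the 2, against 10.8% and 3.43% of all genes. Only Gbp2 and Cxcl9 had a p under 0.05 both ways. The mean level of the list overlapped, at 6.99 to 7.23 on the day 14 arrays and 6.88 to 7.22 on those of day 49. The class II invariant chain gene Cd74 overlapped, at 9.86, 9.12 and 9.58 at day 14 and 8.99, 9.66 and 9.71 at day 49. The chemokine receptor gene Cxcr4 was tightly grouped at day 14, at 7.87, 7.91 and 7.94, and stood at 7.08, 7.45 and 7.53 at day 49. Its difference was -0.55 (SE 0.13) and -0.59 (SE 0.15) without the 2. Its ligand gene Cxcl12 (-0.73, and -0.50 without the 2) and the monocyte chemokine gene Ccl2 (-0.62 and -0.33) were lower on all day 49 arrays too. So was the cytokine gene Il24 (-0.22 and -0.20), and these 3 were named after their values were seen. The signals of Il24 are low, at 3.98 to 4.13 at day 14 and 3.70 to 3.95 at day 49. All lie below the median probe set of 5.60. The other 2 probe sets of Cxcl12 overlapped, at -0.26 and 0.31 over all arrays. Of 30 microglia and macrophage genes 10 were higher and 20 lower, and 14 were higher and 16 lower without the 2 arrays. At a p under 0.05, 0 were higher and 5 (16.7%) lower over all arrays, and 2 higher and 0 lower without the 2. Csf1r, a receptor of these cells, was lower on all day 49 arrays (6.55 to 6.85) than at day 14 (6.91 to 7.65). Cx3cr1 and Aif1 overlapped between the groups. The scavenger receptor genes Mrc1 (-0.31, and 0.61 without the 2) and Cd163 (0.24 and 0.46) were higher without the 2 arrays, with day 14 replicate 2 the highest of the 6 arrays in both. The mean level of the microglia and macrophage list was 6.34 to 6.63 on the day 14 arrays and 6.13 to 6.58 on those of day 49.

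Fkbp5, a co-chaperone of the glucocorticoid receptor that glucocorticoids induce, was the only named gene that passed the test, and it did so only without the 2 arrays. Its signals were 7.21, 8.29 and 7.44 at day 14 and 8.19, 7.28 and 8.33 at day 49. Replicates 1 and 3 of day 49 lay above those of day 14, while the 2 arrays were in the opposite order. Fkbp5 rose by 0.94 (SE 0.11, 1.91-fold, limma adjusted p = 0.0104) without the 2 arrays, with both day 49 arrays above both of day 14. Over all 6 arrays the difference was 0.29 (SE 0.28, adjusted p = 0.618). The call was also lost without day 14 replicate 1 (0.82) and without day 49 replicate 3 (0.87), each with 1 array left in that group. It was lost when only the day 14 and day 49 arrays were fitted (adjusted p = 0.996), and when the control arrays were added to the fit (adjusted p = 0.0793). Array weights (adjusted p = 0.103) and the beta-actin 3' minus 5' signal as a covariate (0.90, adjusted p = 0.113) also ended it. A second probe set of Fkbp5 gave 0.44 over all arrays and 0.37 without the 2, and neither passed.

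The other 3 probe sets that passed had no gene name here. Probe set 1392613_at had signals of 4.22, 4.76 and 4.65 at day 14 and 6.22, 3.99 and 6.01 at day 49, and rose by 1.67 without the 2 arrays (limma adjusted p = 0.00207). Probe set 1397225_at had signals of 4.87, 5.11 and 4.89 and then 5.96, 4.55 and 6.42, and rose by 1.31 (adjusted p = 0.00207). In both, day 49 replicate 2 was the lowest of the 6 arrays. Probe set 1380306_at had signals of 6.00, 7.50 and 6.77 and then 8.07, 5.43 and 8.24, and rose by 1.77 (adjusted p = 0.0104). All 3 were higher over all 6 arrays as well, by 0.86, 0.69 and 0.49, but did not pass (adjusted p = 0.479, 0.479 and 0.681).

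The wider glucocorticoid response list followed the pattern of Fkbp5. Of 26 genes measured, 14 were higher and 12 lower over all 6 arrays, with a median of 0.01 and 1 higher at a p under 0.05. Without the 2 arrays 19 were higher and 7 lower, with a median of 0.18 against -0.01 over all genes. Then 10 were higher and 1 lower at a p under 0.05, against 2.60% and 3.43% over all genes, and Fkbp5 was the only one called. The mean level of the list was 7.17, 7.39 and 7.09 on the day 14 arrays and 7.30, 7.09 and 7.41 on those of day 49. The 2 arrays thus gave the second highest and the joint lowest value, each on the opposite side from the rest of its group. Bcl6, a transcriptional repressor, had signals of 8.79, 9.23 and 8.71 at day 14 and 9.23, 8.54 and 9.21 at day 49. It stood at 0.08 over all arrays and 0.47 without the 2 (SE 0.10, limma adjusted p = 0.568). Mt2A, a metal-binding metallothionein, was 0.02 and 0.39. Klf9 and Klf15, transcription factors, were -0.25 and 0.32, and 0.02 and 0.73. Pdk4, a kinase that restrains pyruvate oxidation, was -0.18 and 0.55. These 4 and the sulfotransferase gene Sult1a1 (0.32 and 0.77) were named after their values were seen. Another 2 probe sets of Klf9 stood at 0.04 without the 2 arrays.

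Tsc22d3, the glucocorticoid-induced leucine zipper, was the member whose groups did not overlap over all 6 arrays. It had signals of 11.52, 10.72 and 11.42 at day 14 and 11.74, 11.71 and 11.75 at day 49, and was named after its values were seen. The 3 day 49 arrays were nearly equal, and day 14 replicate 2 was far below the other day 14 arrays. The difference was 0.51 (SE 0.16, limma adjusted p = 0.479) and 0.27 (SE 0.07, adjusted p = 0.607) without the 2. Fmo2, a flavin monooxygenase that is not on the list, was named after its values were seen. It was 0.59 and 0.93, and its probe sets did not agree on overlap. Of 21 circadian clock genes, whose levels follow the hour of dissection, 11 were higher and 10 lower over all arrays. Without the 2 arrays 18 were higher and 3 lower, with a median of 0.09 and 0 members at a p under 0.05. Whether the hour of dissection has a part in the glucocorticoid genes was not tested.

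**Figure D3:**
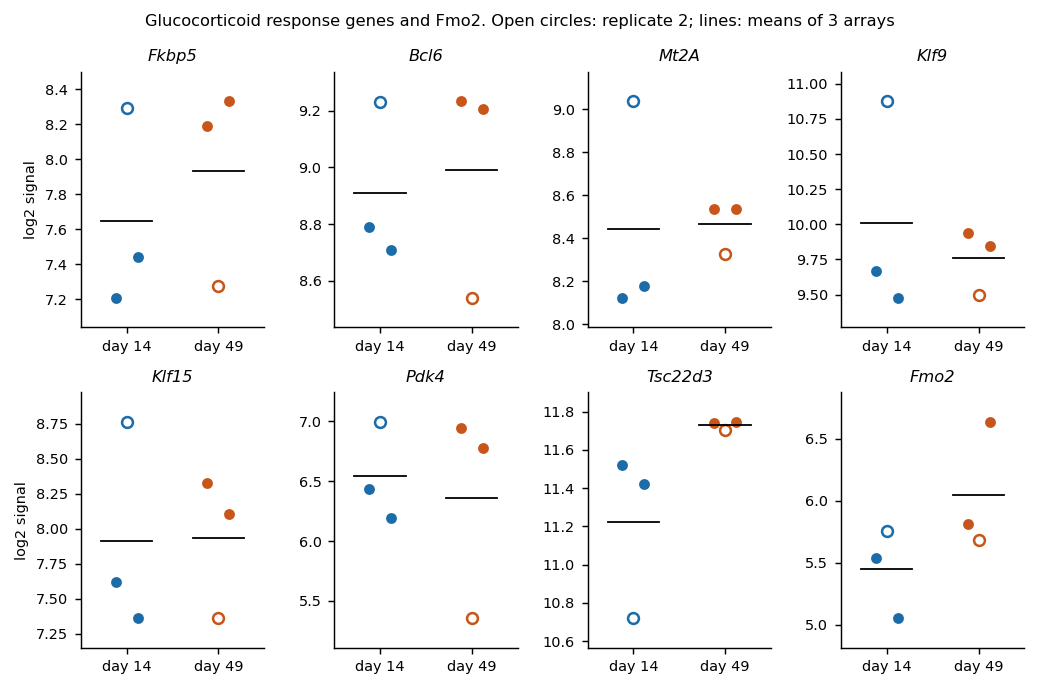
Log2 signal of 7 glucocorticoid response genes and Fmo2, with 1 point per array (blue day 14, orange day 49), open circles for replicate 2 of each group and lines for means of 3 arrays; the vertical axes do not start at 0. In Fkbp5, Bcl6, Mt2A, Klf9, Klf15, Pdk4 and, by little, Fmo2 the filled circles are higher at day 49 while the open circles are in the opposite order. In Tsc22d3 all day 49 arrays lie above day 14.

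Genes higher at day 49 with the smallest p over all 6 arrays had differences of 0.35 to 0.53, and none passed (limma adjusted p = 0.479 for each). Chrm4, a muscarinic acetylcholine receptor, had signals of 3.98, 3.85 and 3.84 at day 14 and 4.14, 4.54 and 4.35 at day 49. These signals are low, all below the median probe set of 5.60. It differed by 0.45 (SE 0.09) and by 0.33 (SE 0.08) without the 2 arrays. The other 5 were Phospho1 (a phosphatase of mineralizing cells, 0.53), Rin3 (a regulator of Rab5, 0.43), C1qtnf12 (a secreted adipolin, 0.35), Pth1r (the parathyroid hormone receptor, 0.47) and Fbxo41 (a neuronal F-box protein, 0.40). In each of the 5 the groups did not overlap, and day 49 replicate 2 was the highest array. Without the 2 arrays their differences were 0.23, 0.30, 0.20, 0.19 and 0.23. Other probe sets overlapped for C1qtnf12 (0.18, 0.10 and -0.27 over all arrays, each below 0 without the 2) and for Pth1r (-0.18 and -0.09).

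The neurons, oligodendrocytes and vessels of the tissue were described by lists in which no member was called. Of 23 layer V and corticospinal genes 6 were higher and 17 lower, with a median of -0.08, and 8 were higher and 15 lower without the 2 arrays, with a median of -0.02. Crym, a thyroid hormone binding protein of corticospinal neurons, was at 7.99, 8.01 and 7.98 at day 14 and 7.85, 7.65 and 7.89 at day 49, a difference of -0.19 and of -0.11 without the 2. Bcl11b, which specifies these neurons, took opposite signs, -0.46 over all arrays and 0.05 without the 2, and day 49 replicate 2 was at 4.43 and the other 5 arrays at 5.70 to 5.93. Its other probe sets were at 0.27 and 0.12, with no overlap, and at -0.12 and 0.10. Of 28 myelin genes 11 were higher and 17 lower, and 13 were higher and 15 lower without the 2, with a median of -0.03 both ways. At a p under 0.05, 1 was higher and 3 lower over all arrays, and 0 and 6 without the 2, against 3.43% of all genes lower without the 2. Cnp, a myelin phosphodiesterase, was at 10.34, 9.96 and 10.32 at day 14 and between 9.95 and 10.02 at day 49, a difference of -0.22 and of -0.32 without the 2, and its other probe set was at 0.76 and -0.51. Ugt8, which makes the myelin lipid galactosylceramide, was -0.03 and -0.64, with 6.29 on day 14 replicate 2. Mbp was 1.18 with the 2 arrays and -0.18 without them. Of 28 cholesterol biosynthesis genes 12 were higher and 16 lower, and without the 2 arrays 7 were higher and 21 lower, with Fads2, a fatty acid desaturase, at -0.34 and -0.30.

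The lists of connective tissue and vessels overlapped between the groups. Of 28 meningeal and fibroblast genes 15 were higher and 13 lower over all arrays, and 9 were higher and 19 lower without the 2. The fibrillar collagen gene Col1a1 had signals of 8.23, 8.42 and 8.18 at day 14 and 7.76, 7.75 and 7.97 at day 49, a difference of -0.45 and of -0.34 without the 2. Col3a1 (-0.68, and -0.39 without the 2) and Col1a2 (-0.58 and -0.24), also fibrillar collagens and named after their values were seen, were lower on all day 49 arrays. Their unadjusted p without the 2 arrays was 0.0678 and 0.0968 in limma. The mean level of the meningeal list was 7.52 to 7.61 on the day 14 arrays and 7.24 to 7.74 on those of day 49. Meningeal cells are another source of the collagens and matrix genes above, and their part in those differences was not tested. Of 26 endothelial genes 15 were higher and 11 lower, and 11 were higher and 15 lower without the 2.

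Across the 39 lists the median difference was below 0 in 23 over all arrays and in 28 without the 2. The lists with the lowest medians without the 2 arrays were reactive astrocyte (-0.18), red blood cell (-0.15, 6 genes), perineuronal net and matrix (-0.14) and regeneration associated (-0.13). The red blood cell list holds Alas2, an enzyme of haem synthesis in red cells, which was at 5.67, 5.81 and 6.23 at day 14 and 5.47, 5.54 and 5.56 at day 49. The highest median without the 2 arrays was that of the glucocorticoid response (0.18). Several lists moved by more than 0.1 with the 2 arrays, among them synaptic vesicle and scaffold genes (0.12 and -0.05) and pericyte and smooth muscle genes (0.15 and -0.02).

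**Figure D4:**
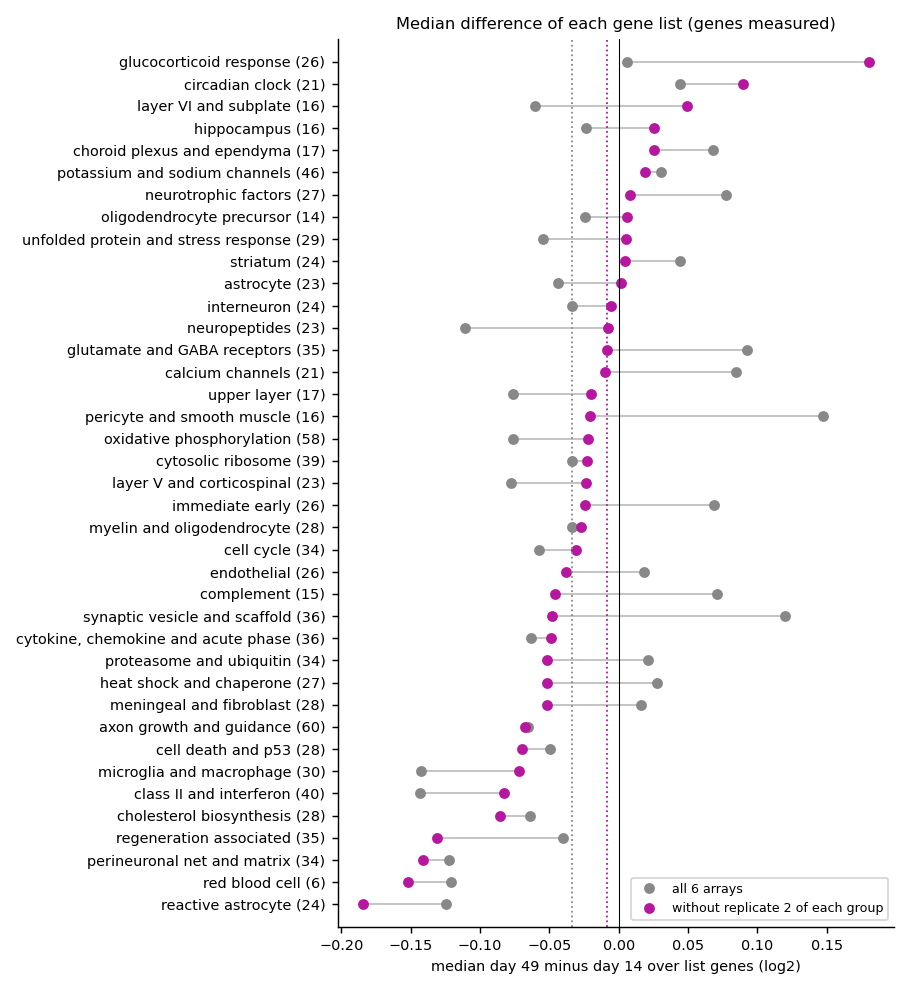
Median difference between day 49 and day 14 over the genes of each list, in log2 units, over all 6 arrays (grey) and without replicate 2 of each group (magenta); the number of genes measured is in brackets, and dotted lines mark the medians over all 14217 genes (-0.03 and -0.01). The reactive astrocyte and matrix lists lie below both dotted lines, and the glucocorticoid list moves from 0.01 to 0.18.

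The earlier arrays place these differences on the time course. Vip had means of 4.22 ± 0.39 at day 1, 4.04 ± 0.34 at day 3 and 5.66 ± 1.67 at day 7 (SD, n = 3 each), against 6.70 ± 0.39 at day 14 and 4.29 ± 0.54 at day 49. Day 14 thus had the highest mean of the 5 times, and day 49 was within the spread of days 1 and 3. The highest single array was an earlier one, at 7.41 against 7.14 for the highest of day 14. Gal (7.06 ± 0.19, 7.05 ± 0.20 and 7.93 ± 0.81 at days 1, 3 and 7) and Npy (6.39 ± 0.14, 6.53 ± 0.28 and 7.56 ± 1.28) also had their highest mean at day 14, with a wide spread at day 7. Their highest single arrays were earlier ones too, at 8.78 for Gal and 9.03 for Npy. The highest day 14 arrays were at 8.71 and 8.53. Atf3 differed from them, with 7.65 ± 0.85 at day 1 and 6.90 ± 0.19 at day 3, so that its day 49 mean of 5.90 ± 0.35 was the lowest of the 5 times. Gfap was at 5.82 ± 0.08 at day 1, 4.98 ± 0.23 at day 3 and 5.29 ± 0.28 at day 7, against 5.88 ± 0.25 at day 14 and 5.19 ± 0.10 at day 49. Fkbp5 was at 7.95 ± 0.15, 7.65 ± 0.11 and 7.63 ± 0.04 at days 1, 3 and 7, and its SD of 0.57 at both day 14 and day 49 was the largest of the 5 times. Tsc22d3 had means of 11.59 ± 0.04, 11.53 ± 0.04 and 11.60 ± 0.05 on those days, each below all 3 day 49 arrays. No test was made between the earlier days and day 49.

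**Figure D5:**
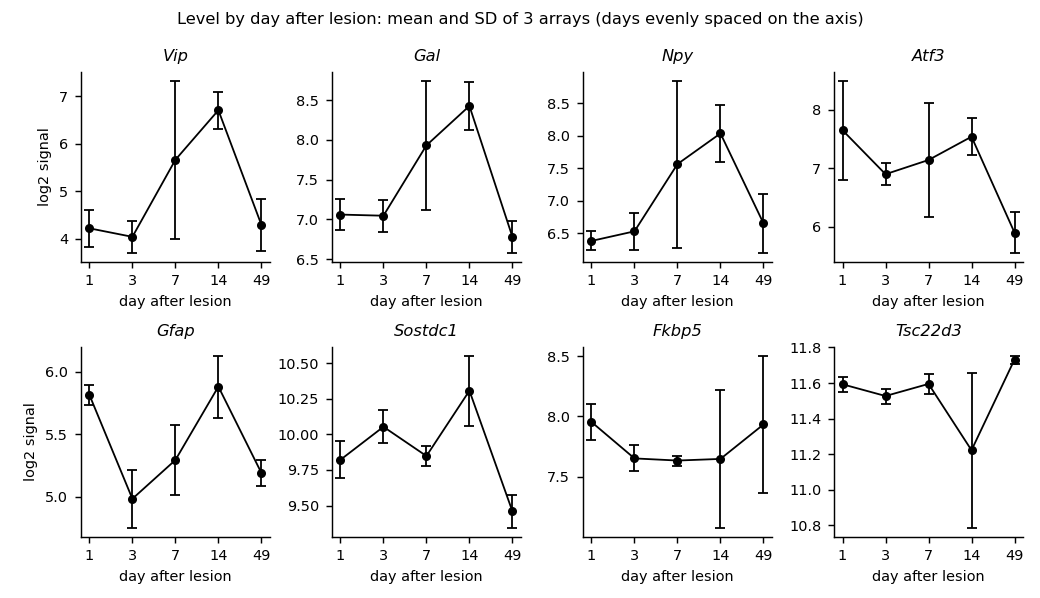
Mean log2 signal of 8 genes at days 1, 3, 7, 14 and 49 after the lesion, with error bars for the SD of 3 arrays; days are evenly spaced on the horizontal axis and the vertical axes do not start at 0. Vip, Gal and Npy have their highest mean at day 14 and lie near their means of days 1 and 3 at day 49, Atf3 and Sostdc1 have their lowest mean at day 49, and Fkbp5 has its widest spread at days 14 and 49.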

How the data were processed

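The authors deposited log2 signals for each probe set on each array, made with RMA per the submitters' processing notes, with no version named. RMA puts the arrays on one distribution, which hides any change shared by all RNAs. Dates of scanning were not analysed here. The table held 31099 probe sets, of which 57 were array controls and 31042 were tested. Symbols came from the platform annotation, updated by gene ID for 20758 probe sets and by accession for 2, and 66 kept the annotation's symbol. In all 20826 had 1 symbol, 436 several and 9780 none. For each of 14217 genes the probe set of highest mean signal over the 15 lesion arrays was taken.

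limma 3.58.1 in R 4.3.3 fitted 5 group means over the 15 lesion arrays with eBayes defaults (10 residual and 2.6 prior degrees of freedom), and again over 13 arrays without day 14 replicate 2 and day 49 replicate 2 (8 and 4.57), two-sided, with Benjamini-Hochberg adjustment. The number of arrays limits the precision. The earlier groups entered only to estimate the spread. A fold is 2 raised to the difference. The fit was tested on simulated data. Values by list are counts and medians, without a test, for 39 lists with 1255 entries, of which 1090 matched a gene on the array.

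The comparison, the lists and the 2 arrays set aside were chosen with earlier results of these data known. Genes were named by rule: in each fit the genes past the threshold without overlap (up to 12 a direction) or, with fewer than 3, the 6 of smallest p; the 2 members of each list with the smallest p without the 2 arrays; and Atf3, Jun, Sox11, Gap43, Sprr1a, Gfap, Bcl11b, Crym, Fos, Vip, Gal, Npy, Sst, Mbp and Cd74. Tissue markers were given as a check. For genes outside the rule the text says that their values were seen first. Promoters came from RefSeq (GRCr8), matched by symbol. Alternatives were other sets of arrays in the fit, median centring, repeated quantile normalization, trended robust eBayes, array weights, a replicate block, a beta-actin 3' minus 5' covariate, a filter at the median probe set, 1 probe set per gene, all probe sets of each gene for lists, a minimum change of 0.5 and leaving out each array. Python 3.11.15 and matplotlib 3.10.9 made the plots.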

Additional observations from a re-analysis of the deposited data

How the results depend on the processing

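With 3 arrays a group, 2 of them standing apart, small differences could not be called, and which genes differ depends on whether those 2 arrays are used. The count of 0 over all 6 arrays held under every alternative run except array weights and leaving out 1 array, which gave 0 to 2. Array weights gave 3562 (1205 higher, 2357 lower). Vip, Gal, Npy, Gfap, Sostdc1, Ctnnal1, Pdpn, Zfp455, Hacl1, Gap43, Chrm4 and Rin3 were among those calls. The weights on day 49 replicates 1, 2 and 3 were 0.373, 0.066 and 4.65, and that on day 14 replicate 2 was 0.0372. The weighted count thus rests mostly on 1 day 49 array, replicate 3. Among the 13 lesion arrays kept, this array had the lowest median correlation with the others (0.994). It also had the highest 3' minus 5' signal of Gapdh (0.196). The 4 calls without the 2 arrays became 0 with only the day 14 and day 49 arrays fitted, 0 with control arrays added, 2 with array weights, 2 with the beta-actin covariate, 2 after the filter, 1 with 1 probe set per gene, and 1 to 90 when 1 more array was left out; the 90 came without day 49 replicate 1 (26 higher, 64 lower). With the replicate number as a block the counts were 0 and 4; the numbers did not pair the samples, since deviations of like-numbered arrays correlated by 0.0839, -0.0606 and -0.206. Lists with a median below 0 numbered 16 to 30 over the alternatives, against 23. Without the 2 arrays, Bcl11b was 0.054, Mbp -0.18 and Sst 0.037, and with array weights 0.13, -0.19 and 0.010. Leaving out 1 array put Bcl11b as low as -0.75 and turned the sign of C1r (-0.30 to 0.020), Cd74 (-0.27 to 0.16, and -0.38 without the 2 arrays), Fos (-0.041 to 0.86), Mbp (-0.10 to 1.85), Sox11 (-0.22 to 0.10) and Sst (-0.21 to 0.028). Genes named from the 4 arrays had the opposite sign over all 6 arrays in 30 cases: Aqp1 1.29, Fkbp4 1.24, Sdhc 1.20, Rpsa 1.12, Bsg 0.98, Psmd8 0.96, Clu 0.52, Rplp0 0.49, Serpinh1 0.46, Srebf1 0.20, Stx1a 0.19, Stmn4 0.16, S1pr3 0.084, Lifr 0.071, Acta2 0.066, Apaf1 0.031, Egr3 0.026, Uqcrfs1 0.0020, Dlg4 -0.062, Mertk -0.082, Perp -0.14, Mpped1 -0.17, Pdk4 -0.18, Cebpb -0.19, Klf9 -0.25, Foxp2 -0.26, S1pr1 -0.27, Mrc1 -0.31, Ube2n -0.31 and Ptprb -0.57. In most of the positive cases the signal on day 14 replicate 2 was the lowest of the 6; the cause was not tested.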
